A study of Homo sapiens with 60 samples.

Results

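The 5 genes described here encode enzymes that make asparagine, alanine, proline and aspartate: ASNS, GPT2, ALDH18A1, PYCR1 and GOT1. They were chosen by symbol among the 57665 genes of the deposited TPM table, and all 5 were found and passed the filter on low counts that kept 18040 genes. RNA was sequenced from U2OS, an established human osteosarcoma line stably carrying Dmr-PERK, in which the kinase domain of mouse PERK is joined to DmrB, a domain that pairs when the ligand AP20187 (the dimerizer, "Dim" in the labels) is present. Cells received dimerizer at 0.01 nM, at an intermediate dose written here as 0.2 nM (the labels and the plots give it to 3 decimals) or at 3 nM, and 3 libraries were made for each dose at each of 6 times between 1 and 24 h. The untreated cells, in 2 sets of 3 libraries labelled 0 h, carried the same construct, and the genotype label was WT throughout. The series asks how the transcriptome follows the strength and the length of the trigger. The labels describe 1 engineered line, name no untreated culture collected beside each time point, and do not say whether replicates came from separate cultures, so p-values measure the spread between these libraries, which may be technical.

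In the integrated stress response a kinase such as PERK phosphorylates the translation factor eIF2 alpha, which lowers bulk translation while ATF4, a transcription factor, is made in greater amount. ATF4 is known for raising genes of amino acid supply, and ASNS is its textbook target, through a promoter element bound by C/EBP and ATF proteins. Asparagine takes its amide nitrogen from glutamine, and alanine, aspartate and proline are each linked to glutamate by the enzymes described here.

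The promoters are shown because ASNS is the reference gene for this element and the other members with a window can be read against it. RefSeq windows on GRCh38.p14 were used for ASNS, ALDH18A1 and GOT1. GPT2 and PYCR1 had no window in the set used and were not searched. The search was for TGATGNAA, the core of the C/EBP-ATF element, on both strands of 300-base windows (250 before to 50 after the annotated start), and 3.62% of 35116 such windows held it. The 250 bases before the start are printed 5′ to 3′ on the gene's strand, with the match in capitals, for ASNS (chr7:97872409-97872658, minus strand) and GOT1 (chr10:99430625-99430874, minus strand).
ASNS: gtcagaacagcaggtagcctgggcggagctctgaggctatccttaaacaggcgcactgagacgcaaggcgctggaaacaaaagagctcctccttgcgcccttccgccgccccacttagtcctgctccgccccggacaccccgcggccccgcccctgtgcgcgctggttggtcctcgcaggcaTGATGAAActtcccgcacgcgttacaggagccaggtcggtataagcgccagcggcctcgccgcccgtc
GOT1: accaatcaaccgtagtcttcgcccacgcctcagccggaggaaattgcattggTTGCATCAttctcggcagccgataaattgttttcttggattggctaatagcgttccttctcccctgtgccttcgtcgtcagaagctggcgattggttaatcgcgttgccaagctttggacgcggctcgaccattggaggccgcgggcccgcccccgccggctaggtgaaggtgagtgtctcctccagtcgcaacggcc
In ASNS the letters TGATGAAA lay on the gene's own strand at bases -68 to -61 from the start. In GOT1 the match read on the opposite strand lay at bases -198 to -191. The window at another annotated ASNS start and the ALDH18A1 window held no match. A match describes letters only and shows no binding.

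Library totals lay between 5598612 and 28436165 counts. The 39 libraries of untreated set 1, 0.01 nM and 0.2 nM held at most 10367375 counts and the 21 libraries of untreated set 2 and 3 nM at least 20713699, so depth and the step to 3 nM cannot be told apart. Each of the 5 genes had between 227 (GPT2) and 13156 (PYCR1) counts in every library, and the median coefficient of variation of TPM within a group ran from 2.71% (PYCR1) to 6.39% (GPT2). All 6 mesenchymal markers had a median of at least 1 TPM, with summed levels of 1777 to 5771 TPM in treated and 5010 to 5531 TPM in untreated libraries. Of the markers of other cells, 0 of 4 blood, 0 of 5 endothelial, 2 of 5 epithelial (EPCAM, CDH1) and 1 of 5 hepatocyte genes (SERPINA1) reached that median, and CD3E, HBB, KRT20, ALB, TTR and CYP3A4 had a median of 0. Summed epithelial markers stood at 3.98 to 16.4 TPM in treated and 5.44 to 10.8 TPM in untreated libraries, and summed hepatocyte markers at 20.8 to 108 TPM in treated and 30.0 to 63.1 TPM in untreated libraries; their part in the results was not tested. As a check of the labels, TRIB3, a target of ATF4, stood at 344 ± 11.7 TPM at 3 nM for 24 h, against 15.5 ± 1.27 and 15.0 ± 0.347 TPM in untreated sets 1 and 2 (SD, n = 3 each).

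**Figure D1:**
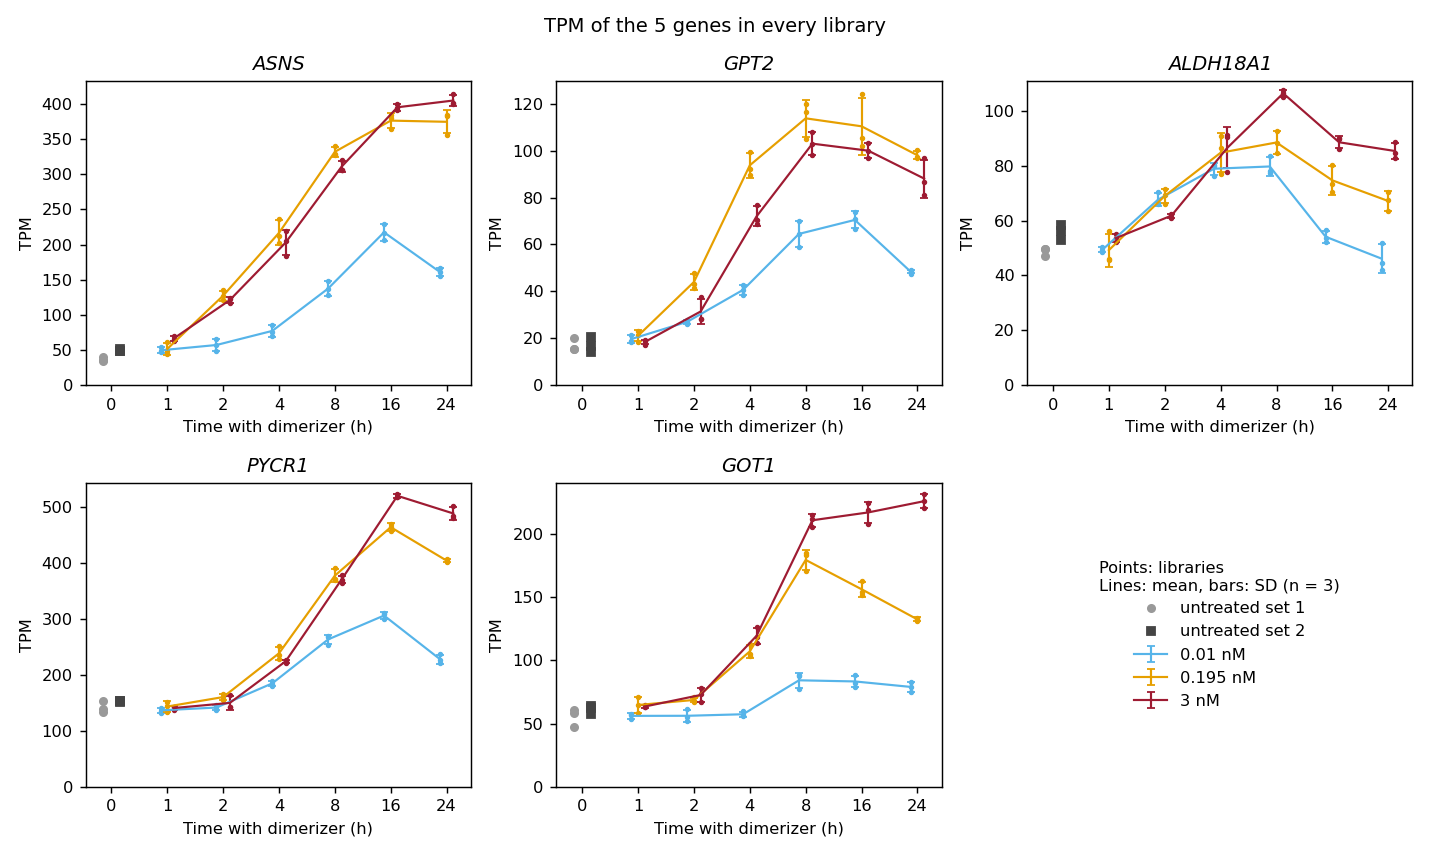
TPM (transcript abundance corrected for length and library size) of each gene in every library against hours with dimerizer, with the untreated sets at 0 h. At 24 h the libraries of ASNS read 402, 399.7 and 414 TPM at 3 nM, against 34.9 to 50.7 TPM in untreated cells, and ALDH18A1 had its highest mean at 8 h at all 3 doses.

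ASNS, the synthetase that turns aspartate into asparagine, had the largest fold change of the 5 genes at 24 h at every dose. After 24 h its libraries read 156, 166 and 161 TPM at 0.01 nM, 385, 356 and 384 TPM at 0.2 nM and 402, 399.7 and 414 TPM at 3 nM. The untreated libraries read 35.6, 34.9 and 40.2 TPM in set 1 and 48.8, 48.0 and 50.7 TPM in set 2. All 9 treated libraries lay above all 6 untreated ones. Against the mean of both untreated sets, the log2 fold change of ASNS at 3 nM for 24 h was 3.16 (SE 0.0437, 8.93-fold higher, edgeR adjusted p = 3.09e-53). At 24 h it was 1.82 (SE 0.0509) at 0.01 nM and 2.93 (SE 0.0459) at 0.2 nM, with edgeR adjusted p of 7.87e-37 and 8.34e-50. In bulk RNA, fewer cells of a type and less RNA per cell cannot be told apart.

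ASNS moved earlier at the upper doses. At 3 nM its mean levels were 66.5 ± 3.63, 121 ± 3.74, 203 ± 17.9, 311 ± 8.14 and 396 ± 4.73 TPM at 1, 2, 4, 8 and 16 h (SD, n = 3 each), and 44.2% of the 24 h gain in TPM was present by 4 h. At 0.2 nM they were 51.5 ± 8.93, 127 ± 7.14, 217 ± 17.7, 332 ± 6.87 and 376 ± 10.3 TPM at the same times. At 0.01 nM they were 49.5 ± 4.09, 57.1 ± 8.76, 77.2 ± 8.16, 138 ± 10.1 and 218 ± 11.7 TPM, and at 2 h these libraries overlapped the untreated range. Its log2 fold change there depended on the scaling: it was 0.14 and not called in edgeR (adjusted p = 0.0885), but called at 0.16 by library size alone (adjusted p = 0.0397) and at 0.40 with limma on log2(TPM + 1) (adjusted p = 2.79e-05). ASNS at 0.01 nM was highest at 16 h, and its 24 h mean was 74.0% of that peak. That step was a log2 change of -0.45 (SE 0.0534, edgeR adjusted p = 1.35e-09), whereas the same step at 3 nM was 0.02 (SE 0.0439, edgeR adjusted p = 0.799).

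GPT2, the mitochondrial alanine aminotransferase, was already above all untreated libraries at 2 h at each dose, as was ALDH18A1. After 24 h its libraries read 48.9, 48.6 and 47.6 TPM at 0.01 nM, 97.2, 96.8 and 100.1 TPM at 0.2 nM and 96.9, 86.5 and 81.0 TPM at 3 nM. Untreated libraries read 20.2, 15.3 and 15.3 TPM in set 1 and 20.3, 14.0 and 16.9 TPM in set 2. Treated and untreated libraries did not overlap, while the ranges of 0.2 and 3 nM touched. The log2 fold change at 24 h was 1.18 (SE 0.0486) at 0.01 nM, 2.21 (SE 0.0424) at 0.2 nM and 2.26 (SE 0.0391) at 3 nM, with edgeR adjusted p of 1.34e-28, 1.03e-45 and 1.63e-48.

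By 4 h at 3 nM, GPT2 had 77.3% of its 24 h gain in TPM, a larger share than ASNS. ASNS peaked at 24 h, whereas GPT2 peaked at 8 h with 121% of its 24 h gain, so its later fall raises the share. Its means at 3 nM were 18.4 ± 1.02, 31.4 ± 5.48, 71.95 ± 4.25, 103 ± 4.78 and 100 ± 3.14 TPM at 1, 2, 4, 8 and 16 h (SD, n = 3 each). At 0.2 nM they were 21.1 ± 2.42, 44.0 ± 3.22, 93.8 ± 5.22, 114 ± 7.83 and 110.4 ± 12.1 TPM, and at 0.01 nM 19.6 ± 1.67, 27.0 ± 0.935, 40.6 ± 2.12, 64.5 ± 5.53 and 70.5 ± 3.65 TPM. From 2 h on, every GPT2 library at every dose was above all untreated ones. From 16 to 24 h at 0.01 nM GPT2 fell by 0.63 on the log2 scale (SE 0.0511, edgeR adjusted p = 6.68e-15). The falls at 0.2 nM (-0.28, edgeR adjusted p = 5.14e-06) and 3 nM (-0.17, edgeR adjusted p = 0.000853) lost their call with limma on log2(TPM + 1), at -0.16 (adjusted p = 0.479) and -0.18 (adjusted p = 0.541).

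ALDH18A1, the enzyme (P5CS) that activates glutamate for proline synthesis, had the smallest fold change of the 5 at 24 h and its highest mean at 8 h at all 3 doses. Its libraries at 8 h read 78.2, 77.3 and 83.7 TPM at 0.01 nM, 88.2, 84.5 and 92.8 TPM at 0.2 nM and 108, 107 and 105 TPM at 3 nM. The 6 untreated libraries ranged from 47.2 to 58.4 TPM, with a median of 51.4 TPM. No treated library overlapped them at 8 h. The log2 fold change at 8 h was 0.52 (SE 0.0350) at 0.01 nM, 0.58 (SE 0.0347) at 0.2 nM and 0.88 (SE 0.0302) at 3 nM, with edgeR adjusted p of 1.77e-19, 8.07e-22 and 1.94e-33.

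At 24 h the level of ALDH18A1 followed the dose. It read 51.9, 42.0 and 44.5 TPM at 0.01 nM, 67.6, 63.4 and 70.4 TPM at 0.2 nM and 84.5, 88.7 and 83.0 TPM at 3 nM. The 0.01 nM libraries overlapped the untreated range and the others lay above it. The log2 fold change against untreated at 24 h was 0.71 (SE 0.0306, edgeR adjusted p = 6.37e-29) at 3 nM and 0.22 (SE 0.0349, edgeR adjusted p = 1.65e-07) at 0.2 nM. At 0.01 nM it was -0.02 at 16 h (edgeR adjusted p = 0.621) and -0.27 at 24 h (SE 0.0375, edgeR adjusted p = 2.63e-08). The step from 8 to 16 h was -0.55 at 0.01 nM, -0.15 at 0.2 nM and -0.12 at 3 nM, with edgeR adjusted p of 4.76e-16, 0.00218 and 0.00186; the call at 0.2 nM was lost without replicate 3 (adjusted p = 0.0596). At 2 h the means were 67.6 ± 2.44, 68.97 ± 2.72 and 61.8 ± 0.694 TPM at 0.01, 0.2 and 3 nM, and at 4 h 78.9 ± 2.20, 84.8 ± 7.14 and 86.5 ± 7.53 TPM. By 4 h at 3 nM, ALDH18A1 had 104% of its 24 h gain in TPM, the highest share of the 5 genes at that dose. By 8 h it had 164%, so its later fall raises this share.

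PYCR1, a mitochondrial reductase that completes proline synthesis, had the highest mean TPM of the 5 genes in every group and at 3 nM rose late. After 24 h its libraries read 221, 237 and 226 TPM at 0.01 nM, 401, 407 and 403 TPM at 0.2 nM and 500.3, 484 and 479 TPM at 3 nM. Untreated libraries ranged from 134 to 153 TPM, with a median of 152 TPM. The doses and the untreated libraries were fully separated. The log2 fold change at 24 h was 0.53 (SE 0.0379) at 0.01 nM, 1.35 (SE 0.0353) at 0.2 nM and 1.62 (SE 0.0336) at 3 nM, with edgeR adjusted p of 4.71e-18, 4.97e-39 and 1.14e-44.

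At 3 nM the PYCR1 means were 140.5 ± 2.79, 149.7 ± 12.8, 224 ± 2.37, 369.8 ± 6.94 and 519 ± 3.24 TPM at 1, 2, 4, 8 and 16 h (SD, n = 3 each), and by 4 h 22.6% of the 24 h gain was present, the lowest share of the 5 genes at that dose. At 0.2 nM they were 143 ± 9.70, 160.1 ± 5.28, 238 ± 11.6, 377 ± 12.1 and 463 ± 6.69 TPM, and at 0.01 nM 136 ± 4.44, 141 ± 4.46, 185 ± 4.37, 263 ± 8.01 and 306 ± 6.01 TPM. Each dose was highest at 16 h. From 16 to 24 h PYCR1 fell by 0.49 on the log2 scale at 0.01 nM (SE 0.0434, edgeR adjusted p = 1.25e-13) and by 0.22 at 0.2 nM (SE 0.0405, edgeR adjusted p = 0.000119). At 3 nM it fell by 0.12 (edgeR adjusted p = 0.0210), a call lost without replicate 2 (adjusted p = 0.115), without replicate 3 (adjusted p = 0.247) and on the TPM scale (limma adjusted p = 0.419).

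GOT1, the cytosolic aspartate aminotransferase, had the largest difference of the 5 genes between 3 and 0.2 nM at 24 h. Its libraries then read 79.0, 75.2 and 83.1 TPM at 0.01 nM, 134, 131 and 133 TPM at 0.2 nM and 226, 232 and 221 TPM at 3 nM. Untreated libraries ranged from 47.4 to 63.7 TPM, with a median of 59.6 TPM. None of these groups overlapped. The log2 fold change at 24 h was 0.33 (SE 0.0509) at 0.01 nM, 1.14 (SE 0.0452) at 0.2 nM and 1.94 (SE 0.0391) at 3 nM, with edgeR adjusted p of 2.60e-07, 4.42e-30 and 3.14e-45.

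At 3 nM the GOT1 means were 63.5 ± 1.19, 72.7 ± 5.52, 119.5 ± 6.45, 211 ± 5.00 and 217 ± 8.38 TPM at 1, 2, 4, 8 and 16 h (SD, n = 3 each). At 0.2 nM they were 64.8 ± 6.47, 68.8 ± 1.81, 107 ± 4.99, 179.6 ± 7.94 and 156 ± 5.80 TPM, highest at 8 h, and the 24 h mean was 73.8% of that peak. The step from 16 to 24 h was -0.23 on the log2 scale at 0.2 nM (SE 0.050, edgeR adjusted p = 0.000704) and did not pass the test at 3 nM (edgeR adjusted p = 0.971). At 0.01 nM GOT1 stood at 57.4 ± 1.99 TPM at 4 h, within the untreated range, and at 84.3 ± 6.13 TPM at 8 h, wholly above it.

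**Figure D2:**
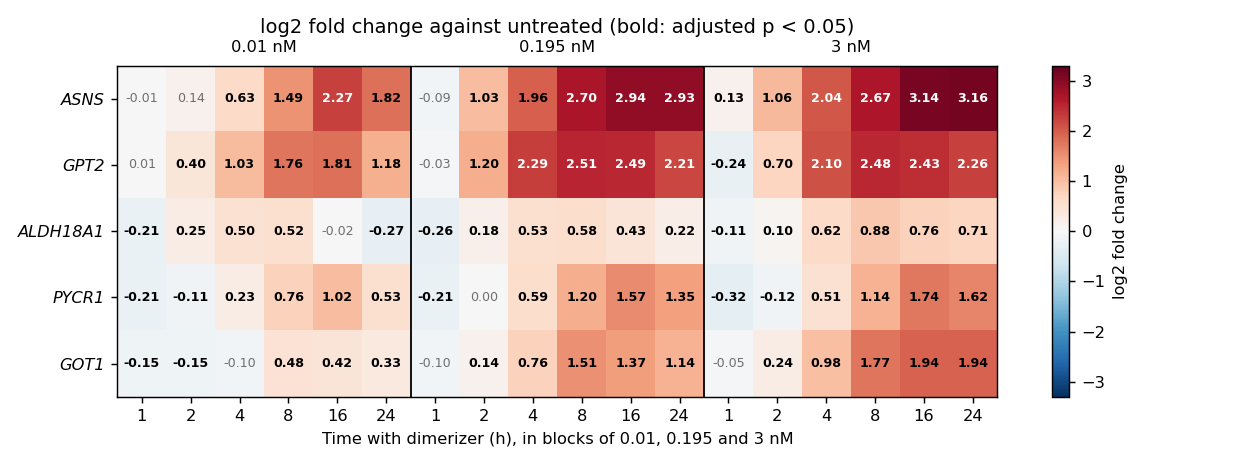
log2 fold change of each gene against the mean of both untreated sets, in columns by dose and hours; bold values had an edgeR adjusted p under 0.05. From 4 h on, every value at 0.2 and 3 nM was positive and called, while ALDH18A1 at 0.01 nM was -0.02 at 16 h and -0.27 at 24 h.

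Counted over the 5 genes, calls in the higher direction (edgeR adjusted p under 0.05) built up with time. At 0.01 nM there were 2 at 2 h (21.5% of all genes tested were called higher), 4 at 4 h (25.9%), 5 at 8 h (27.8%), 4 at 16 h (26.9%) and 4 at 24 h (21%). At 0.2 nM there were 4 at 2 h (22.4%) and 5 at each later time (30.1%, 32.8%, 34.9% and 34.3% at 4, 8, 16 and 24 h). At 3 nM there were 1 at 1 h (22.6%), 4 at 2 h (27.4%) and 5 at each later time (34.9%, 38.5%, 40.6% and 41.1%). The single gene at 1 h was ASNS (0.13, edgeR adjusted p = 0.0345), a call lost without replicate 1 (adjusted p = 0.301), without replicate 2 (adjusted p = 0.123) or against set 2 alone (adjusted p = 0.255). Other 1 h values changed sign and call with the setting. With limma on log2(TPM + 1), ASNS was called higher at 0.01 nM (0.21, adjusted p = 0.0434, against -0.01 in edgeR) and 0.2 nM (0.26, adjusted p = 0.00881, against -0.09), and GPT2 at 0.2 nM (0.30, adjusted p = 0.00959, against -0.03). Mean ASNS at 1 h was 49.5 and 51.5 TPM at 0.01 and 0.2 nM, against 36.9 and 49.15 TPM in untreated sets 1 and 2. Without replicate 1, edgeR called ASNS lower at 0.2 nM (-0.24, adjusted p = 0.0141). At 2 h, GOT1 at 0.2 nM (0.14) lost its call without replicate 1 (adjusted p = 0.447) or 2 (adjusted p = 0.279), and ALDH18A1 at 3 nM (0.10) likewise (adjusted p = 0.111 and 0.197). These calls of GOT1 and ALDH18A1 were also lost against set 1 alone (edgeR adjusted p = 0.111 and 0.152). At 3 nM for 24 h, 4 of the 5, all but ALDH18A1, were called and at least 2-fold higher, against 10.5% of all genes, and the median log2 fold change was 1.94 over the 5 and 0.05 over all genes.

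Calls in the lower direction came at 1 and 2 h, apart from ALDH18A1 at 0.01 nM for 24 h (22.2% of all genes lower). There were 3 at 1 h (15.5%) and 2 at 2 h (22%) at 0.01 nM, 2 at 1 h (19%) at 0.2 nM, and 3 at 1 h (21%) and 1 at 2 h (23.1%) at 3 nM. The log2 fold changes of the early ones ran from -0.32 to -0.11. Calls lost without replicate 3 were GOT1 at 0.01 nM for 1 h and 2 h (adjusted p = 0.191 and 0.0933), PYCR1 at 0.01 nM for 2 h (adjusted p = 0.180) and PYCR1 at 3 nM for 2 h (adjusted p = 0.167). GOT1 at 0.01 nM also lost its calls without replicate 2 at 1 h (adjusted p = 0.149) and without replicate 1 at 2 h (adjusted p = 0.0919), and ALDH18A1 at 3 nM for 1 h without replicate 2 (adjusted p = 0.11). Against set 1 or set 2 alone, GOT1 at 0.01 nM was not called at 1 h (edgeR adjusted p = 0.0708 and 0.0704) or 2 h (0.0534 and 0.0533). Against set 2 alone, PYCR1 at 2 h was -0.04 at 0.01 nM (edgeR adjusted p = 0.491) and -0.05 at 3 nM (edgeR adjusted p = 0.368). ALDH18A1 at 3 nM for 1 h was not called against set 2 alone either (edgeR adjusted p = 0.0875). The early calls depend on the scaling: on log2(TPM + 1) with limma, PYCR1 at 0.01 nM for 1 h was the one still called lower, PYCR1 at 3 nM for 1 h was -0.07 (adjusted p = 0.232, against -0.32 in edgeR), and GPT2 and ALDH18A1 at 3 nM for 1 h turned in sign (0.12 and 0.04, against -0.24 and -0.11). The share of counts from 13 mitochondrially encoded genes was 4.13% to 5.43% in the 1 h groups, against 8.84% in untreated set 1 and 4.44% in set 2; its part in the early calls was not tested.

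**Figure D3:**
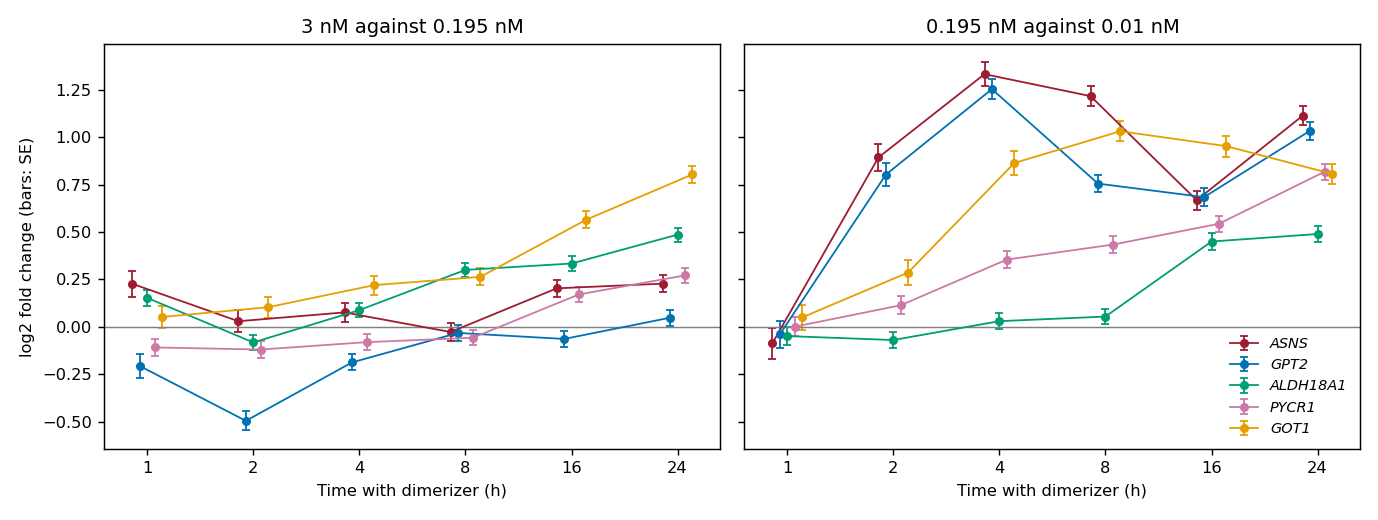
log2 fold change between neighbouring doses at the same time, 3 over 0.2 nM on the left and 0.2 over 0.01 nM on the right, by hours with dimerizer; bars are SE from edgeR. On the left GOT1 reached 0.80 at 24 h while GPT2 ended at 0.05, and on the right ASNS and GPT2 were highest at 4 h (1.33 and 1.25).

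Between 0.2 and 0.01 nM the genes parted at different times. At 1 h the log2 differences were -0.09 to 0.05 (edgeR adjusted p of 0.726 to 1). At 2 h ASNS (0.89), GPT2 (0.80) and GOT1 (0.29) were called higher at 0.2 nM, 3 of 5 against 5.53% of all genes, though GOT1 not without replicate 1 (adjusted p = 0.115). PYCR1 was 0.11 at 2 h (edgeR adjusted p = 0.138) and was called by library size alone (0.14, adjusted p = 0.0392) and with limma on log2(TPM + 1) (0.18, adjusted p = 0.00873). With PYCR1 (0.35 at 4 h), 4 of 5 were higher at 4 h (13.6%) and 8 h (18.9%). ALDH18A1 passed the test at 16 h (0.45, SE 0.0432, edgeR adjusted p = 3.13e-13), when all 5 were called (23.5% of all genes), as at 24 h (26.9%). At 24 h the differences were 1.11 for ASNS, 1.03 for GPT2, 0.82 for PYCR1, 0.81 for GOT1 and 0.49 for ALDH18A1, with SE of 0.0421 to 0.0540.

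At 24 h the step to 3 nM was smaller than that from 0.01 to 0.2 nM for ASNS, GPT2 and PYCR1 and about as large for GOT1 and ALDH18A1; the steps were not tested against each other. At 4, 8 and 16 h it was the smaller one for GOT1 too, with 0.22, 0.26 and 0.57, against 0.86, 1.03 and 0.95, and at 16 h for ALDH18A1 (0.33, against 0.45). At 24 h GOT1 was higher at 3 than at 0.2 nM by 0.80 (SE 0.0451, edgeR adjusted p = 1.45e-22), ALDH18A1 by 0.49 (SE 0.0369), PYCR1 by 0.27 (SE 0.0390) and ASNS by 0.23 (SE 0.0456), 4 of 5 against 30.6% of all genes. The same 4 were called at 16 h (26.9%), 2 at 8 h (ALDH18A1 and GOT1, 23.4%), GOT1 at 4 h (21.3%) and 2 at 1 h (ASNS and ALDH18A1, 15.9%), a pair of calls lost without replicate 3 (adjusted p = 0.269 and 0.108). GOT1 at 4 h lost its call with limma on log2(TPM + 1) (0.16, adjusted p = 0.129). PYCR1 at 16 h lost its call by library size alone (0.08, edgeR adjusted p = 0.0800). GPT2 did not pass at 24 h (0.05, SE 0.0413, edgeR adjusted p = 0.333), except with no filter on low counts (0.14, adjusted p = 0.00882) or with each dose against the untreated set of its depth (0.27). In TPM its 24 h mean was lower at 3 nM, at 88.1 ± 8.10 TPM, against 98.0 ± 1.75 TPM at 0.2 nM (SD, n = 3 each). At 2 h GPT2 read 37.7, 28.1 and 28.4 TPM at 3 nM, against 42.9, 41.4 and 47.6 TPM at 0.2 nM, with no overlap and a log2 difference of -0.50 (SE 0.0503, edgeR adjusted p = 7.13e-12). Called lower at 3 nM were GPT2 at 1 h (-0.21; 11.4% of all genes), GPT2 and PYCR1 at 2 h (15.2%) and GPT2 at 4 h (-0.19; 15.5%). Those of GPT2 at 1 h and of PYCR1 were lost without replicate 2 (adjusted p = 0.0969 and 0.101) or 3 (adjusted p = 0.184 and 0.167).

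This comparison sets deep against shallow libraries. With each dose first set against the untreated set of its depth, ALDH18A1 (0.54), GOT1 (0.82) and PYCR1 (0.41) were called at 24 h as before. ASNS was then 0.14 at 24 h (adjusted p = 0.163) and 0.12 at 16 h (adjusted p = 0.281), and on log2(TPM + 1) 0.11 and 0.07 (limma adjusted p = 0.382 and 0.648); at 16 h its call was also lost without replicate 2 (adjusted p = 0.0503). GPT2 was 0.27 at 24 h (adjusted p = 0.00256), -0.28 at 2 h (adjusted p = 0.00803) and 0.03 at 4 h (adjusted p = 0.816).

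The change from 4 to 24 h within a dose does not use the untreated sets. At 0.01 nM 4 of 5 genes were called higher at 24 than at 4 h (21.9% of all genes), GPT2 among them by 0.15, a call lost without replicate 2 (adjusted p = 0.168) or 3 (adjusted p = 0.203), and ALDH18A1 was lower (-0.77, SE 0.0430, edgeR adjusted p = 8.60e-23; 23.2% of all genes). At 0.2 nM ASNS (0.97), PYCR1 (0.76) and GOT1 (0.37) were higher, 3 of 5 against 25.6%, and ALDH18A1 was lower (-0.31; 26.2%). GPT2 at 0.2 nM was -0.07 (edgeR adjusted p = 0.172), called lower without replicate 1 (adjusted p = 0.0298). At 3 nM all 5 were called higher (34.5%), by 1.12 for ASNS, 1.11 for PYCR1, 0.96 for GOT1, 0.16 for GPT2 and 0.08 for ALDH18A1, whose sign turned on the TPM scale (-0.02) and whose call was lost without replicate 1 (adjusted p = 0.0837) or 2 (adjusted p = 0.276).

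The difference between 3 and 0.2 nM in this change was tested directly. It was 0.58 for GOT1 (SE 0.0675, edgeR adjusted p = 2.30e-10), 0.40 for ALDH18A1 (SE 0.0525, edgeR adjusted p = 8.21e-09), 0.35 for PYCR1 (SE 0.0573, edgeR adjusted p = 1.13e-06) and 0.24 for GPT2 (SE 0.0591, edgeR adjusted p = 0.00101), 4 of 5 called higher against 19.5% of all genes. GPT2 was not called on the TPM scale (0.22, limma adjusted p = 0.382). ASNS was 0.15 (SE 0.0679, edgeR adjusted p = 0.0755), and was called with no filter on low counts (0.18, adjusted p = 0.0132).

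Between 16 and 24 h, falls were called in 4 of 5 genes at 0.01 nM (all but GOT1; 13.2% of all genes fell), in 4 of 5 at 0.2 nM (all but ASNS; 6.05%) and in 2 of 5 at 3 nM (GPT2 and PYCR1; 11.5%). On the TPM scale ALDH18A1 also lost its call at 0.2 nM (-0.15, limma adjusted p = 0.248).

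**Figure D4:**
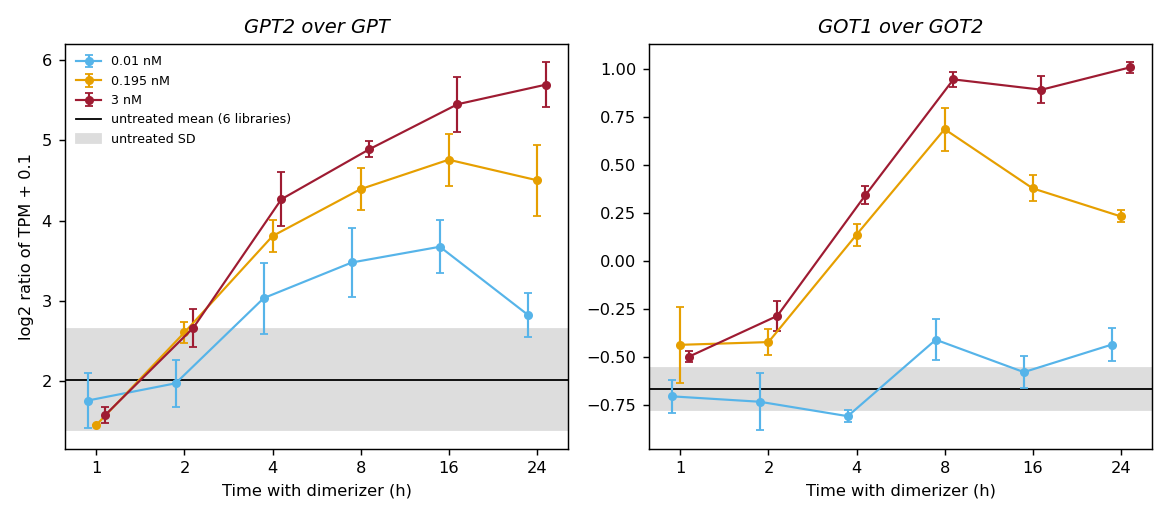
log2 ratio of TPM + 0.1 between a member and a relative with the same reaction, by dose and hours; points are means of 3 libraries with SD, and the line and band are the mean and SD of 6 untreated libraries. At 24 h the GOT1 to GOT2 ratio was -0.43, 0.23 and 1.01 at 0.01, 0.2 and 3 nM, against -0.67 in untreated libraries.

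GPT2 and GOT1 each have a relative that carries out the same reaction, and a ratio within a library does not depend on library scaling. Of 36 such ratios, 23 were called by an exact two-sided permutation test of 3 treated against 6 untreated libraries, whose smallest p is 0.0238. GOT2, the mitochondrial aspartate aminotransferase, stood at 112 ± 0.632 TPM at 3 nM for 24 h, against 87.5 ± 1.67 and 97.0 ± 1.41 TPM in untreated sets 1 and 2 (SD, n = 3 each), a log2 fold change of 0.23 (SE 0.0306, edgeR adjusted p = 7.24e-10). The mean log2 ratio of GOT1 to GOT2 was 1.01 ± 0.0266 in these treated libraries and -0.67 ± 0.111 in the 6 untreated ones, a difference of 1.67 (exact permutation p = 0.0238, adjusted 0.0415), so the cytosolic transcript was above the mitochondrial one at 3 nM and below it in untreated cells. At 0.01 nM for 24 h GOT1 was still below GOT2, with a ratio of -0.43 ± 0.0843, above the untreated ratio by 0.23 (exact permutation, same p). The difference at 0.01 nM was 0.26 at 8 h (exact permutation, same p) and 0.09 at 16 h (exact permutation p = 0.286, adjusted 0.315).

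GPT, the cytosolic alanine aminotransferase, was scarce, with 1.61 ± 0.244 TPM at 3 nM for 24 h, against 2.93 ± 0.577 and 5.71 ± 0.560 TPM in untreated sets 1 and 2 (SD, n = 3 each). The treated libraries lay below all untreated ones. The log2 fold change of GPT was -1.26 (SE 0.166, edgeR adjusted p = 1.02e-09). The log2 ratio of GPT2 to GPT was 5.69 ± 0.278 at 3 nM for 24 h and 2.02 ± 0.631 in untreated libraries (exact permutation p = 0.0238, adjusted 0.0415), a difference of 3.20 against set 1 and 4.14 against set 2. At 0.01 nM for 24 h the difference was 0.81 (exact permutation p = 0.0952, adjusted 0.125).

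PYCRL (PYCR3), a cytosolic reductase of the proline pathway, stood at 30.0 ± 0.669 TPM at 3 nM for 24 h, against 22.0 ± 1.36 and 23.0 ± 0.795 TPM in untreated sets 1 and 2 (SD, n = 3 each), with a log2 fold change of 0.34 (SE 0.0482, edgeR adjusted p = 6.20e-09).

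**Figure D5:**
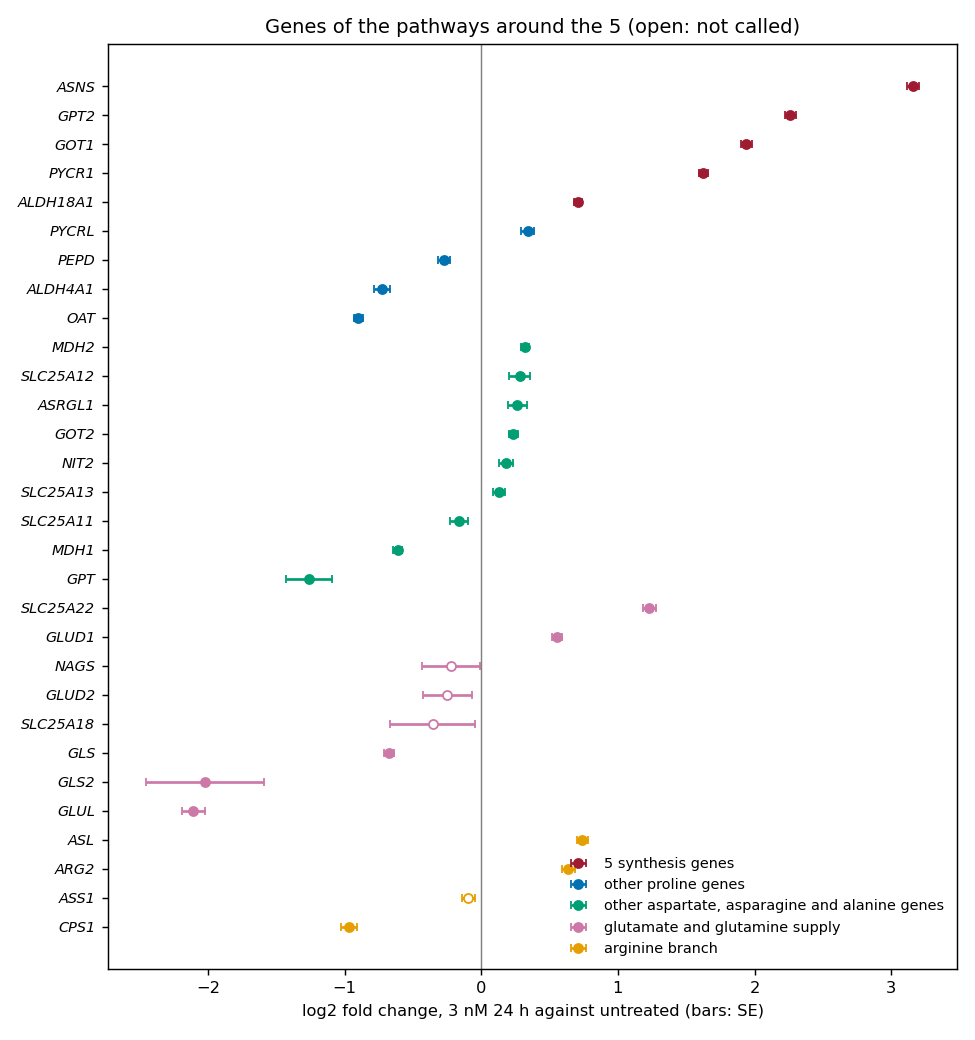
log2 fold change at 3 nM for 24 h against untreated, with SE, for the 5 genes and 25 tested genes of neighbouring reactions grouped by list; open points were not called. The 5 synthesis genes lie between 0.71 and 3.16, and the neighbouring genes between -2.11 and 1.23.

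Other genes of these pathways moved in both directions, as did the tested genes in general. Of 33 found in the table, 25 passed the filter. At 3 nM for 24 h, 11 of the 25 were called higher and 10 lower, against 41.1% and 36% of all genes. The median log2 fold change of the 25 was -0.16. Whether these shares differ from those of all genes was not tested. Of the other proline genes 1 of 4 tested was higher (PYCRL) and 3 lower, and of the aspartate, asparagine and alanine genes 6 of 9 were higher and 3 lower. In the arginine branch 2 of 4 were higher and 1 lower, and in glutamate and glutamine supply 2 of 8 and 3. At 24 h, 5 of the 25 were higher and 4 lower at 0.01 nM (21% and 22.2% of all genes), and 10 and 10 at 0.2 nM (34.3% and 31.2%).

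Beside GPT, the neighbouring genes called and changed at least 2-fold at 3 nM for 24 h were SLC25A22, GLUL and GLS2. SLC25A22, a mitochondrial glutamate carrier, stood at 68.7 ± 1.16 TPM, against 26.8 ± 2.15 and 30.6 ± 2.42 TPM in untreated sets 1 and 2 (SD, n = 3 each), a log2 fold change of 1.23 (SE 0.0484, edgeR adjusted p = 6.66e-31). GLUL, glutamine synthetase, stood at 6.71 ± 0.400 TPM, against 18.1 ± 3.20 and 38.4 ± 3.74 TPM, a log2 fold change of -2.11 (SE 0.0829, edgeR adjusted p = 6.49e-31) that was -1.70 against set 1 and -2.51 against set 2. GLS2, a glutaminase, was low throughout, at 0.526 ± 0.153 TPM, against 1.17 ± 0.736 and 1.21 ± 0.444 TPM. Its log2 fold change was -2.02 (SE 0.430, edgeR adjusted p = 3.09e-05), although its TPM ranges overlapped between treated and untreated libraries.

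In both untreated sets the order of mean TPM was PYCR1, GOT1, ALDH18A1, ASNS and GPT2, with GOT1 and ALDH18A1 overlapping between libraries. At 3 nM for 24 h it was PYCR1, ASNS, GOT1, GPT2 and ALDH18A1, with GPT2 and ALDH18A1 overlapping. The 5 genes together made up 1292 ± 15.9 TPM at 3 nM for 24 h, against 300 ± 16.2 and 336 ± 10.1 TPM in untreated sets 1 and 2 (SD, n = 3 each). In untreated set 2 against set 1, 2 of the 5 were called lower (14% of all genes), GPT2 (-0.22) and PYCR1 (-0.14), and both calls were lost without replicate 3 (edgeR adjusted p = 0.137 and 0.244) and on the TPM scale, where their signs turned (0.01 and 0.11). ASNS did not overlap between the sets, at 34.9 to 40.2 TPM in set 1 and 48.0 to 50.7 TPM in set 2. It was not called in edgeR with TMM. By library size alone it was called higher in set 2 (0.21, edgeR adjusted p = 0.0152), as with limma on log2(TPM + 1) (0.41, adjusted p = 0.000333).

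Across the 20 group means of log2(TPM + 1), Pearson's r between members ran from 0.634 for ALDH18A1 with PYCR1 to 0.960 for ASNS with GPT2. These groups share a start, a dose series and 2 depths, and r is given as a description. The genes with a pattern closest to that of ASNS were AARS (0.993), SLC7A11 (0.988) and YARS (0.986). For GPT2 they were CBS (0.992), SLC1A5 (0.992) and SLC1A4 (0.990), and for ALDH18A1 RCN1 (0.975), NOLC1 (0.965) and CTPS1 (0.959). For PYCR1 they were RUVBL1 (0.994), RABEPK (0.991) and HAX1 (0.991), and for GOT1 ZFAND3 (0.979), RMND1 (0.978) and GART (0.976).

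In GENCODE 29 on GRCh38 all 5 genes are protein coding: ASNS at chr7:97852118-97872542 (minus strand), GPT2 at chr16:46884378-46931297 (plus), ALDH18A1 at chr10:95605929-95656706 (minus), PYCR1 at chr17:81932384-81942412 (minus) and GOT1 at chr10:99396870-99431569 (minus). PYCR1 overlaps MYADML2 and ASNS overlaps the transcript AC079781.5 on the same strand, so reads shared with these neighbours are divided by estimation. Genes on the opposite strand overlap ASNS, PYCR1 and GOT1. The library kit was strand-specific per the labels, and whether strand was used in counting is not given in the sources used here.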

How the data were processed

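The authors deposited a table of estimated counts per gene and a table of TPM per gene for all 60 libraries. Salmon 0.9.1, FastQC 0.11.5 and GRCh38 are named in the submitters' processing notes, and the sources used here do not give the annotation release. GENCODE 29 matched 57068 of 57665 identifiers (99%).

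The deposited estimated counts, of which 54.2% of the nonzero ones were whole within 1e-06, were rounded to whole numbers. After filterByExpr (18040 genes kept) and TMM scaling, edgeR 4.0.16 under R 4.3.3 fitted and tested every gene by quasi-likelihood. All 60 libraries entered 1 fit with 20 group means and 40 residual degrees of freedom, and the untreated value was the mean of both set means. Standard errors are the log2 fold change over the square root of F. p-values were adjusted by Benjamini-Hochberg over all genes in each of 50 contrasts and called at 0.05. The test was checked on simulated counts with known fold changes. Levels in the text are the deposited TPM, with ranges and SD over libraries. Ratios of a member to its relative used log2(TPM + 0.1) and were tested over 84 distinct splits, with p adjusted over all 54 tests run. A relative and a marker gene are not reported here. Likeness was Pearson's r over 20 group means of log2(TPM + 1).

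Alternatives were each untreated set alone, library size without TMM, no filter, a replicate block, leaving out each replicate, limma 3.58.1 on log2(TPM + 1) and log2(TPM + 0.1) for genes with a mean of at least 0.5 TPM, DESeq2 1.42.0, and each dose against the untreated set of its depth. The labels name no molecular identifiers, so what depth says of precision covers counting error only. The 5 genes and all lists were chosen with earlier results of these data known. All 5 members are named. Other pathway genes are named where they are relatives of a member or were called and at least 2-fold changed at 3 nM for 24 h.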

Additional observations from a re-analysis of the deposited data

Results flagged for a closer look

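The change from 4 to 24 h differed between doses for 4 of the 5 genes, by the test of that difference in edgeR. All 4 were called higher at 3 nM, against 19.5% of all genes. The difference, 3 minus 0.2 nM on the log2 scale, was 0.584 for GOT1, 0.398 for ALDH18A1, 0.352 for PYCR1 and 0.236 for GPT2. With 1 replicate left out at a time it ran from 0.565 to 0.595 for GOT1, 0.380 to 0.401 for ALDH18A1, 0.343 to 0.349 for PYCR1 and 0.201 to 0.255 for GPT2, and all 4 were called each time. With limma on log2(TPM + 1) GPT2 was not called (0.2215, adjusted p = 0.382), while GOT1, ALDH18A1 and PYCR1 were. Dose and depth of sequencing cannot be told apart in this difference.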

How the results depend on the processing

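Over 90 tests of the 5 genes against untreated, edgeR called 68 higher and 12 lower. The lower count was 7 with set 2 alone as control and 2 with limma on either TPM scale. Of 30 tests of 3 against 0.2 nM, 13 were called higher and 4 lower, and the lower count was 1 with each dose against the set of its depth, 9 by library size alone, 2 with no filter, 2 with limma on either TPM scale and 2 to 6 without 1 replicate. For untreated set 2 against set 1, 2 of the 5 genes were called lower (GPT2 and PYCR1), against 14% of all genes. That count was 0 by library size alone, 1 with no filter, 0 with limma and 0 to 2 without 1 replicate. Of the 5 genes, 1 was called higher by library size alone (ASNS) and 2 with limma (ASNS and ALDH18A1). Of all genes called between these sets, 84.7% were higher by library size alone, 95.6% with limma on log2(TPM + 1) and 51.5% in edgeR. The other counts kept within 1.5 times: 21 of 30 higher for 0.2 against 0.01 nM, 46 higher and 14 lower of 75 between neighbouring times, and 12 and 2 of 15 for 24 against 4 h. Of the 18040 genes, edgeR called 2274 to 7413 higher and 2803 to 6500 lower against untreated, depending on the dose and time. For 3 against 0.2 nM it called 2867 to 5525 higher and 2056 to 4600 lower, depending on the time. For 0.2 against 0.01 nM it called 62 to 4847 higher. For 24 against 4 h it called 3952 to 6223 higher and 4194 to 6020 lower, depending on the dose. Between neighbouring times it called 751 to 4921 higher and 1092 to 4850 lower, depending on the pair.

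Signs turned with limma on log2(TPM + 1) and log2(TPM + 0.1), in that order, against untreated at 1 h for ASNS at 0.01 nM (0.211 and 0.215) and 0.2 nM (0.255 and 0.260), GPT2 at 0.2 nM (0.302 and 0.317) and 3 nM (0.120 and 0.127) and ALDH18A1 at 3 nM (0.0365 and 0.0372), for PYCR1 at 3 nM and 2 h (0.0226 and 0.0227) and for ALDH18A1 at 3 nM from 4 to 24 h (-0.0163 and -0.0165). Between the untreated sets they turned for ALDH18A1 (0.190 and 0.193), GPT2 (0.00831 and 0.00851) and PYCR1 (0.11 and 0.11). With each dose against the set of its depth, 3 against 0.2 nM turned for GPT2 at 1 h (0.0116) and 4 h (0.0305) and PYCR1 at 2 h (0.0162). The cause was not tested.

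With the replicate number as a block, 1 of 250 gene tests changed its call, a gain for PYCR1 (3 against 0.2 nM at 1 h, -0.11, adjusted p = 0.0457), and the counts for 0.2 against 0.01 nM stayed at 21. Same-numbered libraries had a median correlation of 0.0113 and different-numbered ones -0.00671. Of the same-numbered pairs, 79 of 570 were over 0.1, and 32 of 60 libraries correlated best with their own number. Whether the numbers pair libraries was not tested.

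Over all genes, the number called moved by over 1.5 times in 18 of 50 contrasts with limma on either TPM scale (3 nM from 16 to 24 h, 3804 in edgeR and 712 or 775 with limma), 8 without replicate 2, 7 without replicate 3, 4 with each dose against the set of its depth (3 against 0.2 nM at 1 h, 4923 and 2334), and 1 each with set 2 alone (3 nM at 1 h, 7876 and 4843), no filter (137 and 248) and DESeq2 (137 and 272), both for 0.2 against 0.01 nM at 1 h. Against untreated, log2(TPM + 1) moved the median of all genes up by 0.0165 to 0.165, and in 16 of 18 contrasts the higher calls made up 62.4% to 92.4%, against 44.8% to 54.2% in edgeR. For 3 against 0.2 nM that share was 31.2% to 38.7% in 3 of 6 contrasts, against 57.9% to 58.8%.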
